A study of Mus musculus with 4 samples.

Results

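The transcripts described here encode 10 chains of cytokine and interferon receptors: Il10ra, Il10rb, Ifngr1, Ifngr2, Ifnar1, Ifnar2, Il4ra, Il6ra, Csf2ra and Csf2rb. They were selected by gene symbol, as 10 of the 55082 genes in the authors' table, and lie in 9 of its 53139 loci because Il10rb and Ifnar2 share a locus. The cells were macrophages taken from mouse MCA fibrosarcoma tumours (tumour line 9609, labelled as the parent line, genotype WT) and given exosomes in culture. Exosomes high in MEK1 were given to 2 samples and exosomes low in MEK1, which the labels also mark as GFP, to the other 2 samples. No untreated cells were included, and the labels do not name the cells that released the exosomes, nor state whether samples of 1 group are separate animals or cultures. The p-values therefore speak at most for the spread between these samples, which may be technical. MEK1 content and the GFP mark cannot be told apart. All levels are FPKM (fragments per kilobase of transcript, scaled to library size), with a single deposited value for each group, so no error between samples can be given for any of them.

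Receptors of these families have no kinase of their own. A chain that binds the cytokine pairs with a chain that signals, Janus kinases bound to their inner ends phosphorylate each other and the receptor, and STAT factors docked there move to the nucleus and switch on target genes. In macrophages, GM-CSF sustains survival and activation, interferons raise antiviral and antigen-presenting capacity, IL-4 drives alternative activation, and IL-10 restrains inflammatory output.

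Markers of macrophages were abundant. All 11 macrophage markers were tested and stood between 48.0 and 13148 FPKM with MEK1-hi exosomes and between 47.5 and 12303 FPKM with MEK1-low exosomes. Values were higher with MEK1-hi exosomes for 8 of the 11 and lower for 3, against 49.8% lower among all loci tested. The median log2 fold change of the 11 was 0.07 on the log2(FPKM + 1) scale. Cd14, a co-receptor for bacterial lipopolysaccharide, was the 1 called locus of that list, beside 1.69% of all loci tested called lower and 0.751% higher. It fell to 136 FPKM with MEK1-hi exosomes, against 213 FPKM with MEK1-low exosomes, a log2 fold change of -0.65 (in the authors' deposited table, q = 0.00349). Of 8 neutrophil markers, 6 were listed at 0 in both groups, among them Ly6g, Mpo and Elane, and the summed level was 22.7 FPKM with MEK1-hi and 35.6 FPKM with MEK1-low exosomes, nearly all of it S100a8. With MEK1-hi exosomes, the summed levels were 6.86 FPKM for 10 T and NK cell markers, 2.12 FPKM for 5 B cell markers, 5.38 FPKM for 8 fibroblast and tumour cell markers, 1.31 FPKM for 5 endothelial markers and 4.83 FPKM for 7 dendritic cell markers. With MEK1-low exosomes, the sums of the same lists were 9.42 FPKM (T and NK), 2.25 FPKM (B), 6.64 FPKM (fibroblast and tumour), 1.93 FPKM (endothelial) and 4.75 FPKM (dendritic). Their part in the results below was not tested. In such bulk samples, fewer cells of a type and less RNA per cell cannot be told apart.

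Of the 9 receptor loci, all of which Cuffdiff had tested, 1 passed the threshold of a q-value under 0.05 in the authors' deposited table. It was Csf2rb, lower with MEK1-hi exosomes. Over all 12648 loci tested, 2.44% passed, 1.69% as lower and 0.751% as higher. Values were lower with MEK1-hi exosomes at 6 of the 9 receptor loci and higher at 3, against 49.8% lower among all loci tested. The median log2 fold change of the 9 loci was -0.14 on the log2(FPKM + 1) scale, against 0.00 for the 11804 tested loci of at least 1 FPKM. In the authors' deposited table, with p under 0.05 before adjustment, 3 receptor loci were lower (Csf2rb, Il10ra and Csf2ra) and 0 higher, beside 5.12% and 3.53% of all loci tested.

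All 9 receptor loci had levels above 0 in both groups, Il10rb and Ifnar2 being measured only together. Levels ran from 9.05 FPKM (Il6ra) to 467 FPKM (Csf2ra) with MEK1-hi exosomes, and from 8.25 to 622 FPKM for the same genes with MEK1-low exosomes. Their median was 85.1 FPKM with MEK1-hi and 78.0 FPKM with MEK1-low exosomes, whereas all tested loci had medians of 10.7 FPKM in each group. In descending order of level with MEK1-hi exosomes came Csf2ra, the joined locus of Il10rb and Ifnar2, Csf2rb, Ifnar1, Ifngr1, Ifngr2, Il4ra, Il10ra and Il6ra. The order was the same with MEK1-low exosomes except that Il10ra stood above Il4ra. Without values per sample, it cannot be said which neighbours in this order differ beyond their spread.

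**Figure D1:**
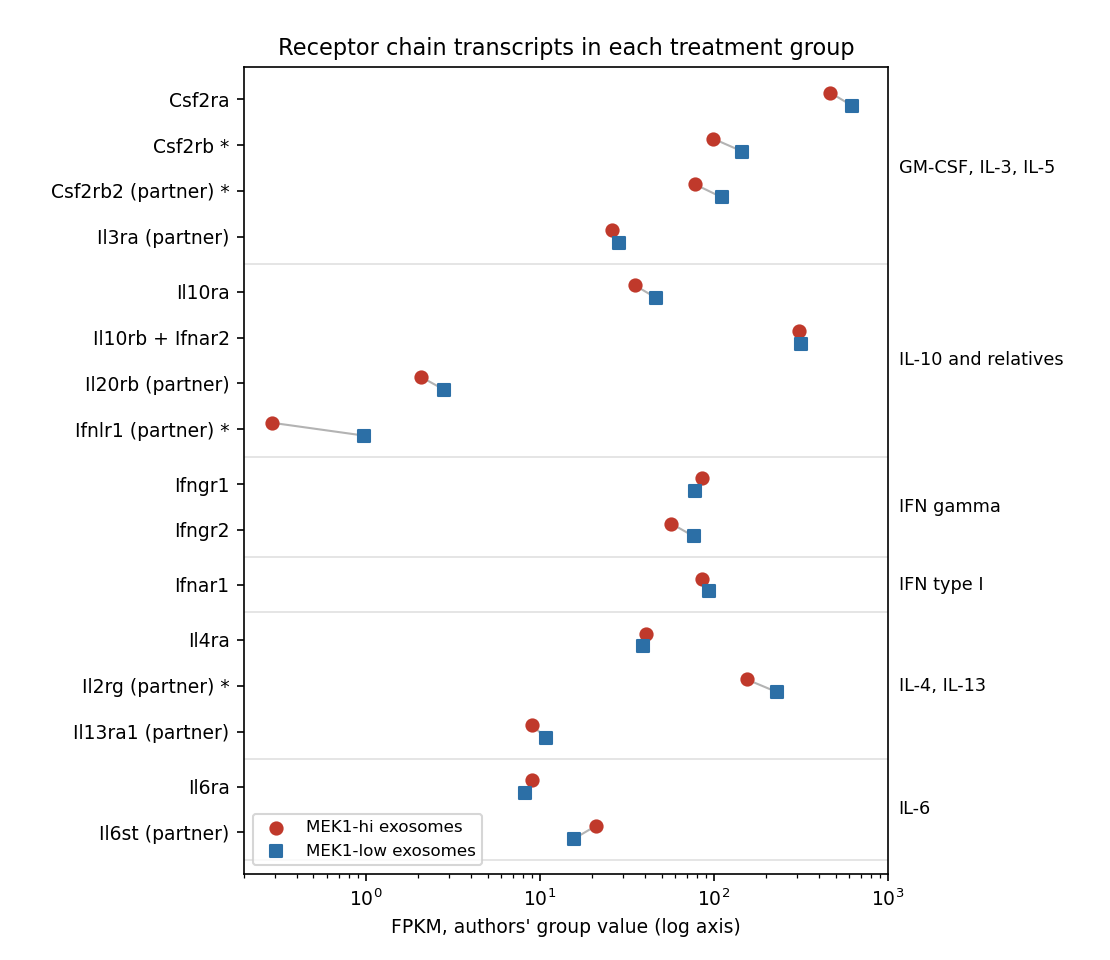
FPKM of each receptor chain and of its tested partner chains, on a log axis, with MEK1-hi (circles) drawn above MEK1-low exosomes (squares) and loci called in the authors' deposited table starred. Each point is a single group value with no error, and the starred loci Csf2rb, Csf2rb2, Ifnlr1 and Il2rg all lie further left with MEK1-hi exosomes.

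Both chains of the GM-CSF receptor had lower values with MEK1-hi exosomes, and the signalling chain was the one called. Csf2rb encodes the common beta chain, which signals for GM-CSF, IL-3 and IL-5. It fell to 99.0 FPKM with MEK1-hi exosomes, against 146 FPKM with MEK1-low exosomes, a log2 fold change of -0.56 (in the authors' deposited table, p = 0.00025, q = 0.0135). The MEK1-hi level was thus 67.9% of the MEK1-low level, and 6.74% of all tested loci had a lower log2 fold change.

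Csf2ra encodes the alpha chain that binds GM-CSF and is the most abundant of the set, above 98.9% of tested loci in mean level. Its level was 467 FPKM with MEK1-hi and 622 FPKM with MEK1-low exosomes, a log2 fold change of -0.41 that did not pass (in the authors' deposited table, p = 0.0478, q = 0.562). The alpha to beta ratio was 4.72 with MEK1-hi and 4.27 with MEK1-low exosomes. Il3ra, the alpha chain for IL-3, stood at 26.1 FPKM with MEK1-hi and 28.5 FPKM with MEK1-low exosomes (in the authors' deposited table, q = 0.999), and Il5ra, the alpha chain for IL-5, was listed at 0 in both groups.

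Mice carry a second beta chain gene, Csf2rb2, whose product serves IL-3 alone. It lies on the opposite strand of chromosome 15, at 78282507 to 78305721 (mm10), beside Csf2rb at 78325752 to 78353847. Csf2rb2 fell as well, to 78.1 FPKM with MEK1-hi exosomes, against 111 FPKM with MEK1-low exosomes, a log2 fold change of -0.51 (in the authors' deposited table, q = 0.0258). Because the genes are near copies, some reads cannot be assigned to one of them. The coding sequences (GENCODE M21) had 95.2% identity over 2628 aligned bases, with an identical run of up to 242 bases. Of all windows as long as a read (100 bases) in the longest Csf2rb transcript, 6.96% occur exactly in Csf2rb2. Within the aligned coding sequence, 265 of 1208 windows of 100 bases that lie in a single exon, or 21.9%, had no mismatch. The summed level of both genes, which does not depend on how shared reads were divided as long as the genes are of similar length, was 177 FPKM with MEK1-hi and 257 FPKM with MEK1-low exosomes, a log2 fold change of -0.54.

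Stretches of exon 14 and exon 4 are shown because they mark the limits of what a read can resolve. The first is identical in both genes (Csf2rb at chr15:78348577-78348676, plus strand, and Csf2rb2 at chr15:78284772-78284871, minus strand, both mm10) and spans the annotated microRNA genes Mir7676-2 and Mir7676-1, which is why each locus carries a microRNA in the table.
Csf2rb and Csf2rb2, exon 14: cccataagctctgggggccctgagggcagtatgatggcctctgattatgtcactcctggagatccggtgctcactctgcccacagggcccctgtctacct
The second is the single-exon window with the most mismatches, 16 of 100 bases, in capitals (Csf2rb at chr15:78338887-78338986, plus strand, and Csf2rb2 at chr15:78294345-78294444, minus strand, both mm10).
Csf2rb, exon 4: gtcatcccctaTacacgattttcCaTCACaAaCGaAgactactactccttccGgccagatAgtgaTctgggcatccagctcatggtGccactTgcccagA
Csf2rb2, exon 4: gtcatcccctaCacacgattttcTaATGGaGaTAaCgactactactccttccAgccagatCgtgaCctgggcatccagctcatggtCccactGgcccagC

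**Figure D2:**
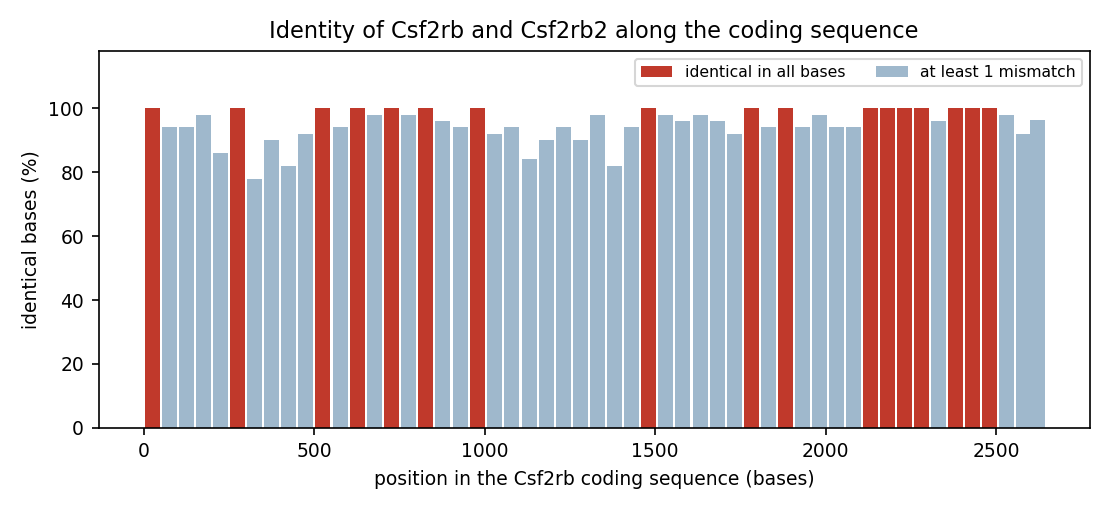
Percentage of identical bases between Csf2rb and Csf2rb2 in consecutive windows of 50 aligned bases along the coding sequence, the last window being shorter. Identical windows cluster beyond coding base 2100, and the lowest window, at 78%, lies near coding base 325.5.

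The call of Csf2rb was among the weaker ones by test score. Its deposited score was -2.02, and 1.94% of the 309 called loci had a smaller absolute score, whereas the median absolute score among called loci was 3.003. The 4 loci with exactly its p-value in the authors' deposited table had absolute scores of up to 2.60, that of Csf2rb being the lowest.

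For IL-10, the chain that binds the cytokine had a lower value, and the shared chain has no value of its own. Il10ra (chromosome 9, 45253837 to 45269149, mm10), which binds IL-10, stood at 35.1 FPKM with MEK1-hi and 46.7 FPKM with MEK1-low exosomes. The log2 fold change of -0.41 was past an unadjusted 0.05 but did not pass the threshold (in the authors' deposited table, p = 0.00445, q = 0.127). Il10rb, the chain that IL-10 shares with IL-22 and the lambda interferons, is counted together with Ifnar2, the high-affinity binding chain for type I interferons, and with Gm21970, which overlaps both on the same strand of chromosome 16. That locus stood at 307 FPKM with MEK1-hi and 317 FPKM with MEK1-low exosomes (in the authors' deposited table, p = 0.780, q = 0.999). The authors give this joined locus a single value per group, so neither Il10rb nor Ifnar2 has a level or a fold change of its own here. Of the read-length windows in their longest coding transcripts, 27.0% of those of Il10rb and 7.33% of those of Ifnar2 also occur in Gm21970.

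The other chains listed for relatives of IL-10 were scarce. Ifnlr1, the chain that binds lambda interferons, fell to 0.289 FPKM with MEK1-hi exosomes, against 0.974 FPKM with MEK1-low exosomes, a log2 fold change of -1.75 (in the authors' deposited table, q = 0.00636). This level is under 1 FPKM in both groups, and 2.81% of tested loci had a lower mean. Il22ra1, a chain that binds IL-22, and Il20ra, which binds IL-20 cytokines, were listed at 0 in both groups. Il20rb, which pairs with Il20ra or Il22ra1 rather than with Il10rb, stood at 2.07 FPKM with MEK1-hi and 2.82 FPKM with MEK1-low exosomes (in the authors' deposited table, q = 0.862).

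For interferon gamma, one receptor chain had a higher value and the other a lower one, neither past the threshold. Ifngr1 (chromosome 10, 19591949 to 19610229, mm10), which binds the cytokine, stood at 85.1 FPKM with MEK1-hi and 78.0 FPKM with MEK1-low exosomes, a log2 fold change of 0.12 (in the authors' deposited table, p = 0.396, q = 0.999). Ifngr2, the signalling chain, stood at 56.8 FPKM with MEK1-hi and 76.6 FPKM with MEK1-low exosomes, a log2 fold change of -0.43 (in the authors' deposited table, p = 0.0805, q = 0.722). The ratio of Ifngr1 to Ifngr2 was 1.497 with MEK1-hi and 1.02 with MEK1-low exosomes. The difference between these ratios was not tested, since the table holds no values per sample.

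Ifnar1, the second chain of the type I interferon receptor, stood at 85.2 FPKM with MEK1-hi and 93.8 FPKM with MEK1-low exosomes, a log2 fold change of -0.14 (in the authors' deposited table, p = 0.348, q = 0.999). Ifnar2, Il10rb, Ifnar1 and Ifngr2 lie in this order on the plus strand of chromosome 16, over 192.8 kb. Going down this cluster, the log2 fold changes of the tested loci were -0.05 for the joined locus, -0.25 for A930006K02Rik (joined with Gm49626, at 2.13 FPKM with MEK1-hi and 2.54 FPKM with MEK1-low exosomes), -0.14 for Ifnar1 and -0.43 for Ifngr2. The next tested locus, Tmem50b, had -0.32 (in the authors' deposited table, q = 0.473), and none of them passed.

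Among the IL-4 and IL-13 receptor chains the shared gamma chain was called and the chain that binds IL-4 was not. Il4ra (chromosome 7, 125552120 to 125579474, mm10) stood at 40.5 FPKM with MEK1-hi and 39.2 FPKM with MEK1-low exosomes, a log2 fold change of 0.05 (in the authors' deposited table, p = 0.765, q = 0.999). Il2rg encodes the common gamma chain, with which Il4ra forms the type I IL-4 receptor of blood cells. Its locus fell to 154 FPKM with MEK1-hi exosomes, against 231 FPKM with MEK1-low exosomes, a log2 fold change of -0.58 (in the authors' deposited table, q = 0.0241). That locus is joined with Gm614 and Gm20489, and 40.2% of the read-length windows of Il2rg also occur in another gene, chiefly Gm20489. Il13ra1, which completes the type II receptor for IL-4 and IL-13, stood at 9.03 FPKM with MEK1-hi and 10.8 FPKM with MEK1-low exosomes (in the authors' deposited table, q = 0.827). Il13ra2, a receptor that captures IL-13, was listed at 0 with MEK1-hi and at 0.0235 FPKM with MEK1-low exosomes and was not tested.

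The IL-6 receptor chains had higher values with MEK1-hi exosomes, without a call. Il6ra (chromosome 3, 89864059 to 89913196, mm10), which binds IL-6, was the lowest of the set, at 9.05 FPKM with MEK1-hi and 8.25 FPKM with MEK1-low exosomes, a log2 fold change of 0.13 (in the authors' deposited table, p = 0.455, q = 0.999). Il6st, which encodes the signalling chain gp130, stood at 20.9 FPKM with MEK1-hi and 15.7 FPKM with MEK1-low exosomes, a log2 fold change of 0.42 (in the authors' deposited table, p = 0.0159, q = 0.296). It was the only one of the 7 tested partner loci with a higher value. Of those 7, 3 passed as lower (Ifnlr1, Il2rg and Csf2rb2) and 0 as higher, beside 1.69% and 0.751% of all loci tested.

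**Figure D3:**
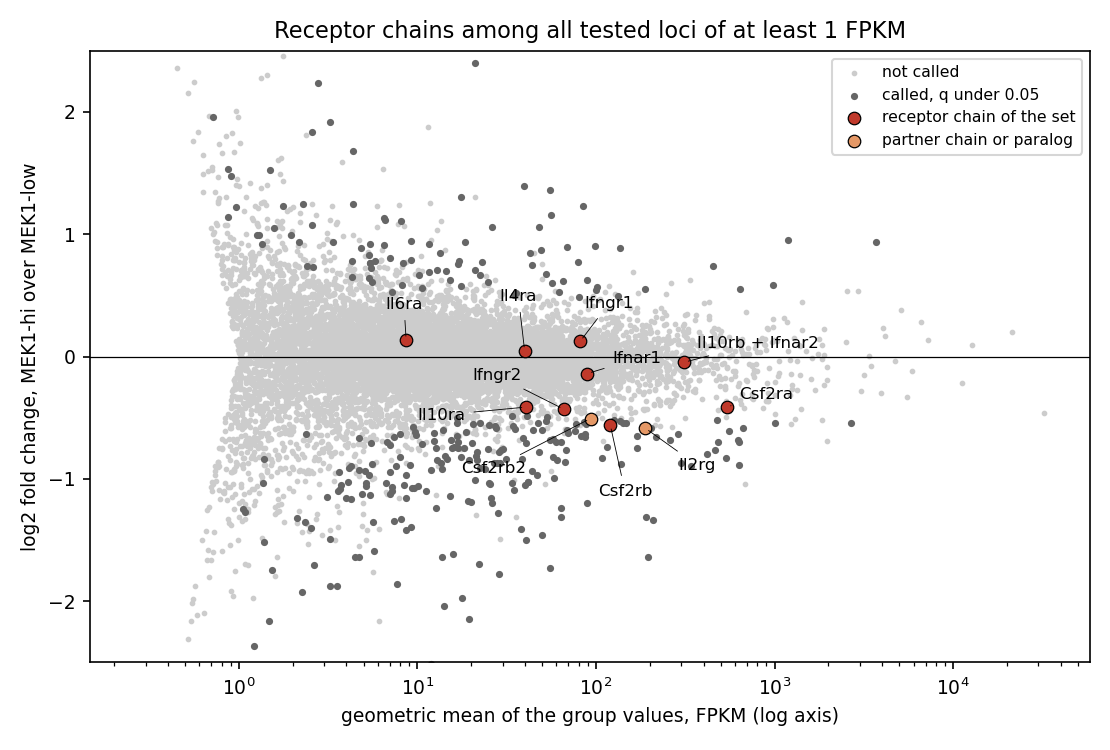
Log2 fold change (MEK1-hi over MEK1-low exosomes, vertical) against the geometric mean of the group values (FPKM, log axis, horizontal) for 11749 of the 11804 tested loci of at least 1 FPKM, since 28 lie outside the vertical range and 27 have a group value of 0. The receptor loci sit at medium to high levels, and the called loci Csf2rb, Csf2rb2 and Il2rg stand at -0.56, -0.51 and -0.58.

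Transcripts of the ligands were at or near 0, except for Il10. Of 23 ligand genes, 15 were listed at 0 in both groups, among them Csf2, which encodes GM-CSF, and 1 was tested. That was Il10, at 2.42 FPKM with MEK1-hi and 2.52 FPKM with MEK1-low exosomes (in the authors' deposited table, q = 0.999). Il24 stood at 0.0637 FPKM with MEK1-hi and 0.280 FPKM with MEK1-low exosomes, and Il6 at 0.0636 FPKM with MEK1-hi and 0.0694 FPKM with MEK1-low exosomes, neither tested.

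The kinases and STAT factors that these receptors use were not called. None of the 9 tested receptor-bound kinases and phosphatases passed in the authors' deposited Cuffdiff table, and 1 was lower with p under 0.05 before adjustment, beside 5.12% of all loci tested. That was Ptpn6, the phosphatase SHP-1 that dampens cytokine signals, at 252 FPKM with MEK1-hi and 313 FPKM with MEK1-low exosomes (in the authors' deposited table, q = 0.468). Ptprc, the phosphatase CD45, stood at 103 FPKM with MEK1-hi and 120 FPKM with MEK1-low exosomes. With MEK1-hi exosomes, Jak1 stood at 48.3, Tyk2 at 16.8, Jak2 at 10.7 and Jak3, joined with Insl3, at 4.13 FPKM. With MEK1-low exosomes, Jak1 stood at 51.8, Tyk2 at 17.5, Jak2 at 12.5 and Jak3 at 3.66 FPKM, and these Janus kinases did not pass.

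Of 14 tested loci of STAT factors and SOCS inhibitors, 1 fell and 0 rose in the authors' deposited table, beside 1.69% and 0.751% of all loci tested. Socs3, which binds gp130 and blocks its Janus kinases, fell to 5.66 FPKM with MEK1-hi exosomes, against 14.9 FPKM with MEK1-low exosomes, a log2 fold change of -1.39 (in the authors' deposited table, q = 0.00349). Stat6, the factor that IL-4 activates, stood at 64.3 FPKM in both groups (in the authors' deposited table, q = 0.999). Adam17, the protease that sheds IL-6 receptors and other surface proteins, fell to 79.4 FPKM with MEK1-hi exosomes, against 115 FPKM with MEK1-low exosomes (in the authors' deposited table, q = 0.0362). It was the 1 locus called among 8 tested for receptor trafficking and shedding, of which 0 rose, against the same background shares. Adam10, a related protease, stood at 81.0 FPKM with MEK1-hi and 71.9 FPKM with MEK1-low exosomes (in the authors' deposited table, q = 0.999).

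Target genes known for each pathway were counted in the same table, and some genes stand in several of these lists. Over all loci tested, 1.69% were called lower and 0.751% higher, 49.8% had a lower value, and p before adjustment was under 0.05 for 5.12% as lower and 3.53% as higher, which is the background for each count below. Of 9 tested GM-CSF and STAT5 targets, 0 were called by Cuffdiff, while in the authors' deposited table p was under 0.05 before adjustment for 2 higher loci and 1 lower locus. The higher ones were Bcl2l1, which encodes the survival protein Bcl-xL, at 71.1 FPKM with MEK1-hi and 49.0 FPKM with MEK1-low exosomes (in the authors' deposited table, q = 0.0660), and Pparg, a nuclear receptor of lipid metabolism, at 25.8 FPKM with MEK1-hi and 17.5 FPKM with MEK1-low exosomes (in the authors' deposited table, q = 0.187). The lower one was Itgax, the integrin CD11c, at 131 FPKM with MEK1-hi and 187 FPKM with MEK1-low exosomes (in the authors' deposited table, q = 0.0557). The locus of Bcl2a1b, a survival gene with near-identical copies and joined with Mthfs and Gm29094, stood at 476 FPKM with MEK1-hi and 413 FPKM with MEK1-low exosomes (in the authors' deposited table, q = 0.921). Of the 9 tested loci, 5 had a lower value and 4 a higher one, with log2 fold changes from -0.94 to 0.56. The median was 0.07 on the log2(FPKM + 1) scale over the 6 loci of at least 1 FPKM.

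Of 10 tested IL-10 and STAT3 targets, 2 fell and 0 rose in the authors' deposited table, with lower values in 9. The median log2 fold change was -0.20 over the 9 loci of at least 1 FPKM. The genes that fell were Socs3 and Bcl3, a nuclear protein of the NF-kB inhibitor family, which fell to 13.3 FPKM with MEK1-hi exosomes, against 21.5 FPKM with MEK1-low exosomes (in the authors' deposited table, q = 0.00349). Of 11 tested interferon gamma targets, 1 fell and 0 rose in the authors' deposited table, with lower values in 10 and a median of -0.24. That was Gbp2, a guanylate-binding protein, at 2.85 FPKM with MEK1-hi and 5.79 FPKM with MEK1-low exosomes (in the authors' deposited table, q = 0.00349), while Psmb8 of the immunoproteasome stood at 289 FPKM with MEK1-hi and 309 FPKM with MEK1-low exosomes.

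Of 19 tested type I interferon targets, 1 fell (Ifit1, 11.3 FPKM with MEK1-hi and 17.1 FPKM with MEK1-low exosomes) and 0 rose in the authors' deposited table, with lower values in 9 and a median of 0.01. Bst2, the antiviral protein tetherin, stood at 610 FPKM with MEK1-hi and 593 FPKM with MEK1-low exosomes (in the authors' deposited table, q = 0.999). Of 12 tested IL-4 and STAT6 targets, 1 rose and 0 fell in the authors' deposited table. Values were lower in 7 of the 12, and the median was -0.15 over the 10 of at least 1 FPKM. In the authors' deposited table, p before adjustment was under 0.05 for 3 higher and 3 lower loci of this list. The gene that rose was Mrc1, the mannose receptor, to 29.9 FPKM with MEK1-hi exosomes, against 17.5 FPKM with MEK1-low exosomes (in the authors' deposited table, q = 0.00349). Arg1, which encodes arginase, stood at 121 FPKM with MEK1-hi and 87.7 FPKM with MEK1-low exosomes (in the authors' deposited table, q = 0.0749), and Clec7a, the receptor Dectin-1, at 564 FPKM with MEK1-hi and 721 FPKM with MEK1-low exosomes.

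**Figure D4:**
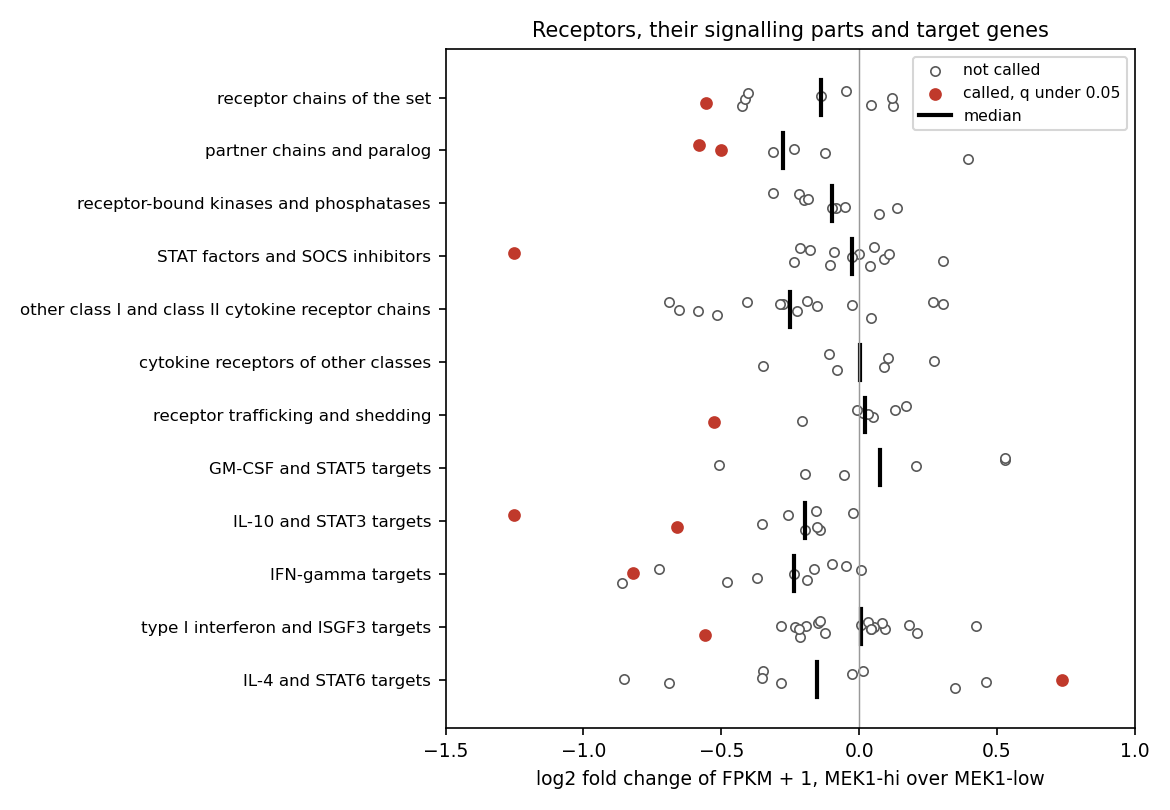
Log2 fold change of FPKM + 1 (MEK1-hi over MEK1-low exosomes) for each tested locus of at least 1 FPKM in the receptor set, its partners, its signalling parts and its target gene lists. Filled points are called at a q-value under 0.05 in the authors' deposited table and bars are medians, which run from -0.27 for the partner chains to 0.07 for GM-CSF and STAT5 targets.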

How the data were processed

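Polyadenylated RNA was sequenced from 4 samples, 2 per treatment. Per the submitters' processing notes, TopHat, Cufflinks, Cuffdiff and FastQC 0.73 were used with build mm10, and settings are not given in the sources used here. The deposited table, laid out as Cuffdiff's gene test per the file headers, holds 1 FPKM value per group, and a test score, p-value and q-value per locus. Which samples entered a value is not stated there. Values per sample were not used here, so no SD is given and all tests are the authors' own. The depth is unknown, because FPKM keeps no counts, and its library scaling is not stated.

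Identifiers were matched to symbols (54824 of 55082, 99.5%) and to GENCODE M21 positions on the same build. Python 3.11.15 and pandas 2.3.3 were used. Fold changes were computed as MEK1-hi over MEK1-low from the FPKM values, because the deposited log2 column holds error text in 1555 cells. Called loci are those of test status OK whose deposited q-value is under 0.05. Medians used log2(FPKM + 1) over tested loci of at least 1 FPKM in either group, and the pseudocount understates changes of low genes. The adjustment and fold functions were tested on simulated data.

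The receptor chains and all 20 gene lists were chosen with earlier results of these data known. The rule for naming took every receptor chain of the set and the named partner chains. From each list it took up to 4 called loci by absolute log2 fold change and the 2 of highest mean FPKM. Loci named beyond this rule (the Janus kinases, Il3ra, Il5ra, Il13ra2, Il20ra, Il6, Csf2, Tmem50b, A930006K02Rik, Il7r, Il21r, Il27ra, F3, Ebi3, Bcl2l1, Pparg, Ly6g, Mpo and Elane) were picked with their values in view. Some genes that the rule allowed are not reported here, though list counts include them where tested. Alternatives were other q thresholds, pseudocounts, FPKM minimums, centring, a minimum test score and leaving out joined loci or Csf2rb.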

Additional observations from a re-analysis of the deposited data

How the results depend on the processing

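The count of called receptor loci was 1 at a q-value under 0.05, and it was also 1 at a q-value under 0.10, with an absolute test score of at least 2, and with p-values adjusted anew over loci of at least 1 FPKM. It was 0 at a q-value under 0.01 by Cuffdiff, and 3 in the authors' deposited table with p under 0.05 before adjustment. The direction of the log2 fold change held in 27 of 27 recomputations over the 9 loci, with pseudocounts of 1 and 0.1 and with centring on all loci. This says little about the directions, because a pseudocount added to both groups cannot reverse one. Centring moved each value by only 0.00095. The median of the receptor loci lay between -0.14 and -0.09, the latter without Csf2rb. The background share of called loci lay between 1.69% and 3.11%. No paired analysis was possible because the table holds a single value per group, and leaving out a replicate was not run for the same reason. The depth behind each value is unknown, and levels under 1 FPKM, such as that of Ifnlr1, are the least certain.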

Other observations

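Genes of the same receptor families outside the set and its partners were also counted. Of 15 tested loci of the class I and class II cytokine receptor families, Cuffdiff called 0, with 2 lower and 0 higher in the authors' deposited table with p under 0.05 before adjustment, beside 5.12% and 3.53% of all loci tested. The lower ones were Il27ra, a chain of the IL-27 receptor, at 0.718 FPKM with MEK1-hi and 1.70 FPKM with MEK1-low exosomes (in the authors' deposited table, q = 0.191), and F3, at 6.68 FPKM with MEK1-hi and 9.18 FPKM with MEK1-low exosomes (in the authors' deposited table, q = 0.361). F3 encodes tissue factor, which shares the class II fold but starts blood clotting, and Ebi3, also counted, encodes a secreted cytokine subunit. Values were lower with MEK1-hi exosomes in 12 of the 15, and the median log2 fold change was -0.25 over the 14 of at least 1 FPKM. Crlf2, the chain that binds TSLP, stood at 87.1 FPKM with MEK1-hi and 99.4 FPKM with MEK1-low exosomes (in the authors' deposited table, q = 0.965). Il11ra1, which binds IL-11, works through gp130 and has near-identical copies that make its level uncertain, stood at 54.6 FPKM with MEK1-hi and 82.3 FPKM with MEK1-low exosomes (in the authors' deposited table, p = 0.0585, q = 0.622). Il7r and Il21r, which pair with the common gamma chain, stood at 55.5 and 43.7 FPKM with MEK1-hi exosomes, against 45.9 and 42.4 FPKM with MEK1-low exosomes.

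Of 6 tested cytokine receptors of other classes, Cuffdiff called 0, with 0 in the authors' deposited table with p under 0.05 before adjustment and a median log2 fold change of 0.00. Csf1r, the receptor kinase for the macrophage growth factor CSF1, stood at 672 FPKM with MEK1-hi and 855 FPKM with MEK1-low exosomes (in the authors' deposited table, p = 0.275, q = 0.999). Tgfbr1, a receptor kinase for TGF-beta, stood at 57.0 FPKM with MEK1-hi and 61.5 FPKM with MEK1-low exosomes (in the authors' deposited table, q = 0.999).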
